A study of Mus musculus with 16 samples.

Results

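Activator protein 1 (AP-1) is a family of dimeric transcription factors with a basic leucine zipper (bZIP), built from FOS and JUN subunits and from related BATF and small MAF proteins. The 10 genes followed here (Fos, Fosb, Fosl1, Fosl2, Jun, Junb, Jund, Maff, Mafk and Batf3) were taken by their symbols out of 20295 genes in the count table. All 10 passed the filter on low counts, as did 12786 genes in total. FOS subunits cannot pair with each other and bind DNA together with a JUN subunit, whereas JUN subunits also form dimers among themselves. Small MAF proteins lack a transactivation domain and pair with each other or with the larger CNC and BACH factors, and BATF proteins pair mainly with JUN subunits. Several of the genes are immediate early genes, whose transcription is raised within minutes by serum, growth factors, stress and, in brown fat, adrenergic stimulation.

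The experiment asked how far the response of brown adipocytes to lipolysis needs fatty acids to be activated or oxidised. RNA-seq was done on BAT-LgT cells, a single mouse brown preadipocyte line immortalized with the SV40 large T antigen and taken to day 7 of differentiation in culture. Cells received vehicle (DMSO), 5 µM triacsin C (TC), an inhibitor of the long-chain acyl-CoA synthetases, or 50 µM etomoxir (ETO), an inhibitor of the mitochondrial fatty acid carrier enzyme CPT1, for 1 h, and were then kept for 3 h with or without SR-3420. SR-3420 is a ligand of ABHD5 that frees this co-activator to switch on the lipase ATGL, so that lipolysis runs without an adrenergic agonist. Its dose is 10 µM by the labels, and the text of the study gives a different one. The 16 samples fall into 6 groups, namely vehicle and SR-3420 with 2 samples each, and TC, TC+SR-3420, ETO and ETO+SR-3420 with 3 samples each. Vehicle replicate 1 and SR-3420 replicate 2 were not analysed here. The smallest library had 9452861 counts and the largest 25670624 (median 13602886). Levels are given in CPM, counts scaled to a common total after TMM normalization. A gene is said to have risen or fallen where its p from edgeR's quasi-likelihood test, adjusted by Benjamini-Hochberg for 12786 genes, was below 0.05.

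SR-3420 raised most of the AP-1 genes in the absence of inhibitor and in the presence of either one. Against vehicle, 8 of the 10 rose and none fell, where 4.75% of all tested genes rose and 2.79% fell. With TC, 8 rose (17.3% of all genes rose and 19.7% fell), and with ETO, 9 rose (12.5% of all genes rose and 12.8% fell). In each of these arms, for all 10 genes, every sample with SR-3420 lay above every sample without it. The same was true of 22.8% of all tested genes without inhibitor, 27.4% with TC and 15.8% with ETO. The median log2 fold change (log2FC) of the 10 genes was 1.74 without inhibitor, 0.95 with TC and 1.74 with ETO, against -0.004, 0.02 and 0.01 for all tested genes. Scaling by library totals in place of TMM turned the split of all genes without inhibitor from 607 raised and 357 lowered to 467 raised and 572 lowered, and left 8 AP-1 genes raised. A model of only the vehicle and SR-3420 samples, 2 against 2, called 3 of the 10 (Fos, Fosl1 and Junb), where of all genes it called 46 raised and 1 lowered, and 5 were called without vehicle replicate 3. These are whole cultures, in which fewer cells of a type and less RNA per cell cannot be told apart.

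**Figure D1:**
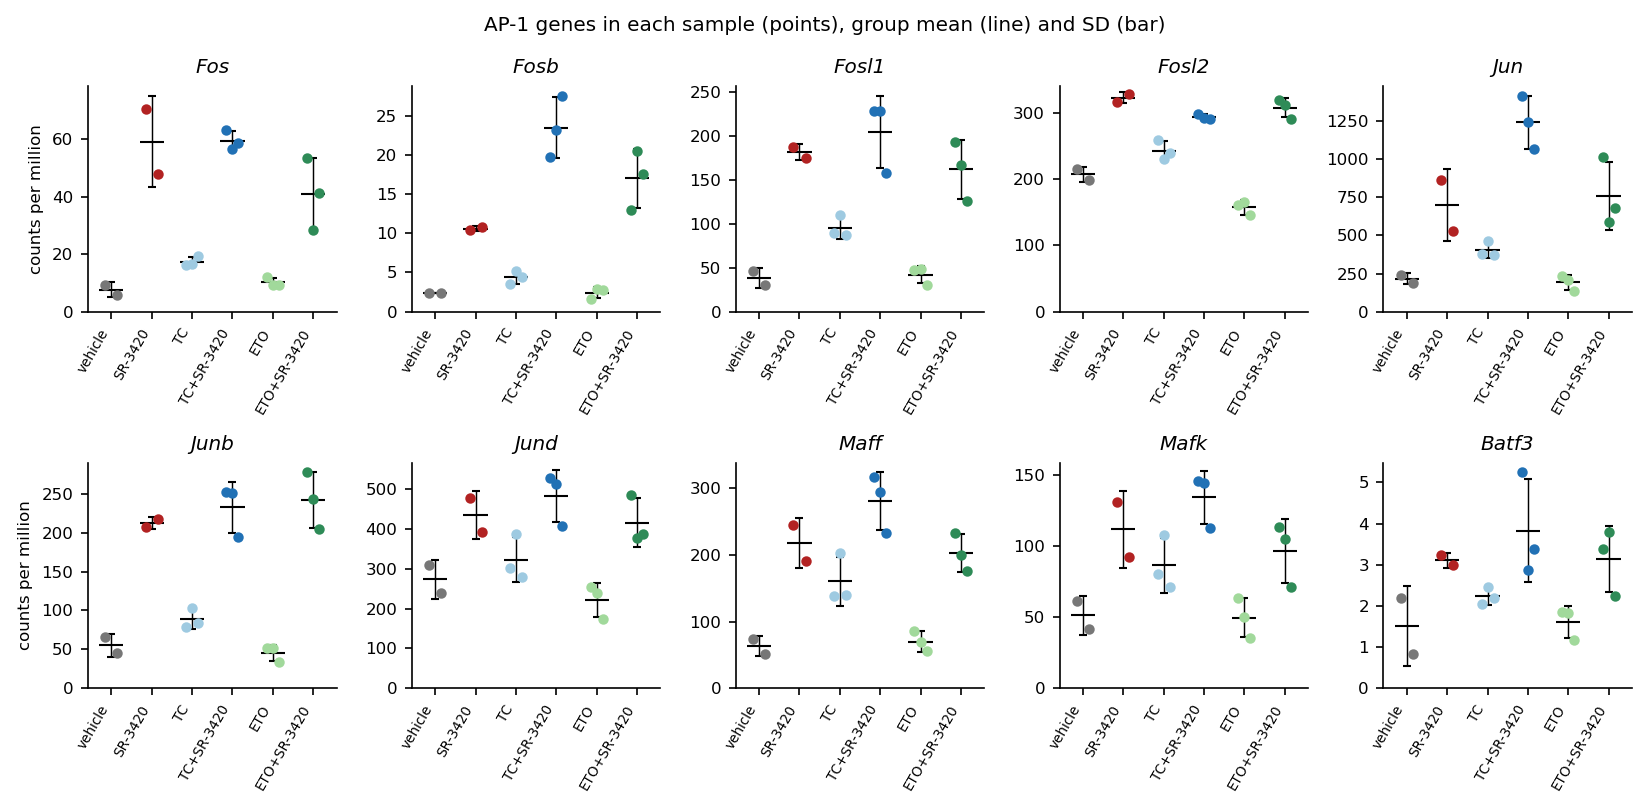
CPM of each AP-1 gene in the 16 samples (points, coloured by treatment group), with the group mean (line) and SD (bar). For each gene the samples with SR-3420 lie above those of the matching group without it, from 0.830 CPM for Batf3 in a vehicle sample to 1413 CPM for Jun in a TC+SR-3420 sample.

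Fos (NM_010234, chromosome 12 of mm9, 86814851 to 86818219, plus strand, 4 exons) encodes the founding FOS subunit, a labile protein made from a short-lived transcript. The promoter window that RefSeq gives for it, on another mouse build (GRCm38.p6), holds a TATA box, shown in capitals in the 150 bases before the start (chr12:85473740-85473889, plus strand).
Fos: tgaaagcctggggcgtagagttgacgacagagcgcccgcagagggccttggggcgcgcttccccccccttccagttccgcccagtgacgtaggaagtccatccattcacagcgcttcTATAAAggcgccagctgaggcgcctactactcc
The motif begins 33 bases before the start. Fos stood at 9.43 and 5.72 CPM in the vehicle samples and at 70.4 and 48.1 CPM with SR-3420. In the TC samples it was at 16.2, 16.6 and 19.3 CPM, and in the TC+SR-3420 samples at 63.1, 56.7 and 58.8 CPM. The ETO samples held 11.9, 9.24 and 9.36 CPM and the ETO+SR-3420 samples 53.4, 28.4 and 41.5 CPM. Fos was thus low in both vehicle samples and in ETO, somewhat higher in each TC sample, and high in all samples with SR-3420, with no overlap between a group and its partner. SR-3420 raised it by a log2FC of 2.96 (SE 0.31) without inhibitor (edgeR adjusted p 0.000117). The increase with TC was 1.77 (SE 0.24, edgeR adjusted p 0.000101), and with ETO it was 2.01 (SE 0.24, edgeR adjusted p 9.35e-05). By group mean, TC+SR-3420 (59.5 ± 3.29 CPM, SD, n = 3) and SR-3420 (59.3 ± 15.8 CPM, SD, n = 2) came first and overlapped, SR-3420 also overlapped ETO+SR-3420 (41.1 ± 12.5 CPM, SD, n = 3), and TC (17.4 ± 1.70 CPM, SD, n = 3) stood apart from its neighbours. ETO (10.2 ± 1.51 CPM, SD, n = 3) and vehicle (7.57 ± 2.63 CPM, SD, n = 2) overlapped at the bottom.

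Fosb (NM_008036, chromosome 7, 19888045 to 19895394, minus strand, 4 exons), whose product pairs with JUN subunits like FOS, was the FOS gene with the fewest reads (24 to 323 counts per sample). Vehicle samples had 2.34 and 2.398 CPM, and SR-3420 samples 10.4 and 10.8 CPM. With TC it was 3.55, 5.20 and 4.40 CPM, against 19.8, 23.2 and 27.5 CPM with TC and SR-3420. With ETO it was 1.58, 2.84 and 2.73 CPM, against 12.97, 20.4 and 17.6 CPM with ETO and SR-3420. The order of the SR-3420 groups differed from that of Fos, since each TC+SR-3420 and each ETO+SR-3420 sample exceeded both SR-3420 samples. Against SR-3420, the same held for 16.6% of all tested genes with TC+SR-3420 and for 6.82% with ETO+SR-3420. Its log2FC was 2.16 (SE 0.31) without inhibitor, 2.41 (SE 0.24) with TC and 2.84 (SE 0.25) with ETO, with edgeR adjusted p-values of 0.00104, 1.33e-05 and 7.80e-06. The groups ranked TC+SR-3420 (23.5 ± 3.86 CPM, SD, n = 3), ETO+SR-3420 (17.0 ± 3.78 CPM, SD, n = 3), SR-3420 (10.6 ± 0.295 CPM, SD, n = 2), TC (4.38 ± 0.825 CPM, SD, n = 3), ETO (2.39 ± 0.699 CPM, SD, n = 3) and vehicle (2.37 ± 0.0411 CPM, SD, n = 2). Only the first pair and the last pair of neighbours in that order overlapped.

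Fosl1 (NM_010235, chromosome 19, 5447698 to 5455938, plus strand) encodes FRA1, a FOS protein without a strong transactivation domain of its own. It has 4 exons in the annotation of mm9, and its last 2 overlap Ccdc85b on the minus strand. The counted length in the table is 550 bases, close to the 545 bases of the 2 exons free of overlap, and since the use of strand in counting is not given in the sources used here, its values are uncertain. Vehicle samples had 46.5 and 30.7 CPM, and SR-3420 samples 187 and 174 CPM. The TC samples ranged from 86.9 to 110 CPM and the TC+SR-3420 samples from 157 to 228 CPM. ETO samples ranged from 30.6 to 48.1 CPM and ETO+SR-3420 samples from 126 to 192 CPM. TC alone lay between the remaining groups, above every vehicle and ETO sample and below every sample with SR-3420. SR-3420 raised Fosl1 by 2.23 (SE 0.29) without inhibitor, by 1.0997 (SE 0.23) with TC and by 1.94 (SE 0.23) with ETO on the log2 scale, with edgeR adjusted p-values of 0.000622, 0.00208 and 9.05e-05. In the order of group means, the 3 SR-3420 groups overlapped one another, as did ETO (42.1 ± 9.97 CPM, SD, n = 3) with vehicle (38.6 ± 11.2 CPM, SD, n = 2).

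Fosl2 (NM_008037, chromosome 5, 32438845 to 32460212, plus strand, 4 exons) encodes FRA2, the FOS protein most often linked to adipocyte biology. Vehicle samples stood at 215 and 199 CPM, and SR-3420 samples at 316 and 328 CPM. In TC they were at 258, 230 and 239 CPM, and in TC+SR-3420 at 298, 292 and 290 CPM. In ETO they were at 161, 166 and 145 CPM, and in ETO+SR-3420 at 319, 312 and 291 CPM. The SR-3420 groups lay close together, so the 3 arms differed mainly in where their untreated samples stood, highest with TC and lowest with ETO. The log2FC was 0.64 (SE 0.12, edgeR adjusted p 0.00537) without inhibitor, where the call was lost without vehicle replicate 3 (adjusted p 0.0703 by edgeR). With TC it was 0.28 (SE 0.10, edgeR adjusted p 0.0382). That call was lost without TC replicate 2, TC replicate 3, TC+SR-3420 replicate 1 or TC+SR-3420 replicate 3 (edgeR adjusted p 0.131, 0.104, 0.0935 and 0.0772). With ETO it was 0.97 (SE 0.10, edgeR adjusted p 2.30e-05). By group mean the order was SR-3420 (322 ± 8.52 CPM, SD, n = 2), ETO+SR-3420 (307 ± 14.6 CPM, SD, n = 3) and TC+SR-3420 (293 ± 3.97 CPM, SD, n = 3), each overlapping the next. TC (242 ± 14.3 CPM, SD, n = 3), vehicle (207 ± 11.01 CPM, SD, n = 2) and ETO (157 ± 10.8 CPM, SD, n = 3) followed with no overlap.

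Jun (NM_010591, chromosome 4, 94715727 to 94718913, minus strand, 1 exon) encodes the JUN subunit that is activated through its N terminus by JNK kinases. It had 243 and 191 CPM in the vehicle samples and 864 and 529 CPM in the SR-3420 samples. TC samples had 381, 462 and 368 CPM, and TC+SR-3420 samples 1413, 1245 and 1066 CPM. ETO samples had 234, 207 and 138 CPM, and ETO+SR-3420 samples 1011, 586 and 677 CPM. Jun was highest in TC+SR-3420, whose 3 samples exceeded every other sample, and the SR-3420 and ETO+SR-3420 samples were widely spread. Every TC+SR-3420 sample lay above both SR-3420 samples in 16.6% of all tested genes. SR-3420 raised Jun by 1.68 (SE 0.31) without inhibitor, by 1.62 (SE 0.26) with TC and by 1.97 (SE 0.26) with ETO on the log2 scale (edgeR adjusted p 0.00569, 0.000306 and 0.000166). The first of these was lost without vehicle replicate 3 (edgeR adjusted p 0.0752) and without SR-3420 replicate 1 (edgeR adjusted p 0.0681). Group means were 1241 ± 174 CPM (SD, n = 3) in TC+SR-3420, 758 ± 224 CPM (SD, n = 3) in ETO+SR-3420 and 696 ± 237 CPM (SD, n = 2) in SR-3420, the last pair overlapping. They were 404 ± 50.6 CPM (SD, n = 3) in TC, 217 ± 37.3 CPM (SD, n = 2) in vehicle and 193 ± 49.3 CPM (SD, n = 3) in ETO, and vehicle and ETO overlapped.

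Junb (NM_008416, chromosome 8, 87500808 to 87502647, minus strand, 1 exon) encodes a JUN subunit that can restrain JUN in the same cell. The RefSeq window places a TATA box, in capitals, directly at the annotated start (chr8:84978743-84978898 of GRCm38.p6, minus strand).
Junb: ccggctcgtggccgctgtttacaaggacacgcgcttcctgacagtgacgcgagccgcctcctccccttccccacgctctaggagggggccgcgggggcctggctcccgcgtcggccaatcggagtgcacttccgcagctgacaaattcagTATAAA
Vehicle samples had 65.3 and 44.7 CPM, and SR-3420 samples 207 and 217 CPM. TC samples had 78.3, 103 and 84.4 CPM, and TC+SR-3420 samples 253, 251 and 195 CPM. ETO samples had 51.4, 51.9 and 33.6 CPM, and ETO+SR-3420 samples 277, 243 and 205 CPM. All samples with SR-3420 lay in 1 band between 195 and 277 CPM, whatever the inhibitor, and TC alone lay above vehicle and ETO. The log2FC was 1.95 (SE 0.25) without inhibitor, 1.39 (SE 0.20) with TC and 2.404 (SE 0.21) with ETO, with edgeR adjusted p-values of 0.000619, 0.000167 and 6.92e-06. Neighbours overlapped among ETO+SR-3420 (242 ± 36.2 CPM, SD, n = 3), TC+SR-3420 (233 ± 32.7 CPM, SD, n = 3) and SR-3420 (212 ± 7.30 CPM, SD, n = 2). TC (88.6 ± 12.98 CPM, SD, n = 3) stood alone, and vehicle (55.0 ± 14.5 CPM, SD, n = 2) overlapped ETO (45.6 ± 10.5 CPM, SD, n = 3).

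Jund (NM_001286944, chromosome 8, 73221638 to 73224515, plus strand, 1 exon) encodes the JUN subunit that is present in most resting cells. Vehicle samples had 308 and 238 CPM, and SR-3420 samples 477 and 392 CPM. TC samples ranged from 280 to 387 CPM and TC+SR-3420 samples from 409 to 528 CPM. ETO samples ranged from 173 to 253 CPM and ETO+SR-3420 samples from 376 to 486 CPM. The groups of Jund formed a nearly continuous series, and each of the 6 overlapped its neighbour in the order of means, from TC+SR-3420 (483 ± 65.1 CPM, SD, n = 3) down to ETO (222 ± 42.6 CPM, SD, n = 3). Without inhibitor its log2FC of 0.67 (SE 0.23, 95% interval 0.17 to 1.17) did not pass the test (edgeR adjusted p 0.0996). It rose with TC by 0.58 (SE 0.19, edgeR adjusted p 0.0269) and with ETO by 0.91 (SE 0.19, edgeR adjusted p 0.00355). The call with TC was lost without TC replicate 1, TC replicate 3 or TC+SR-3420 replicate 1 (edgeR adjusted p 0.0844, 0.104 and 0.0841).

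Maff (NM_010755, chromosome 15, 79178108 to 79189506, plus strand, 3 exons) encodes a small MAF protein. RefSeq lists 3 start sites for it, and the window of the second holds a full cyclic AMP response element (CRE, TGACGTCA) 29 bases before the start, shown in capitals (chr15:79347370-79347519 of GRCm38.p6, plus strand).
Maff: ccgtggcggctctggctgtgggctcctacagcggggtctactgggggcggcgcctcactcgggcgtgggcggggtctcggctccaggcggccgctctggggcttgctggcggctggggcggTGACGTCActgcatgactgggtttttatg
This motif was found in 1.79% of all 32851 RefSeq windows of the same length. Maff stood at 73.4 and 52.0 CPM in vehicle and at 245 and 191 CPM with SR-3420. With TC it was at 139, 203 and 140 CPM, and with TC and SR-3420 at 317, 294 and 232 CPM. With ETO it was at 85.8, 69.0 and 55.2 CPM, and with ETO and SR-3420 at 233, 199 and 176 CPM. The TC samples were all above the vehicle and ETO samples, and TC replicate 2 reached the range of the SR-3420 and ETO+SR-3420 samples. SR-3420 raised Maff by 1.80 (SE 0.27) without inhibitor, by 0.81 (SE 0.21) with TC and by 1.53 (SE 0.22) with ETO on the log2 scale (edgeR adjusted p 0.00146, 0.00946 and 0.000282). Its means ran from 281 ± 43.7 CPM (SD, n = 3) in TC+SR-3420 to 62.7 ± 15.1 CPM (SD, n = 2) in vehicle, and the only gap without overlap between neighbours lay between TC (160 ± 36.6 CPM, SD, n = 3) and ETO (70.0 ± 15.3 CPM, SD, n = 3).

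Mafk (NM_010757, chromosome 5, 140267490 to 140278606, plus strand, 3 exons) encodes another small MAF protein. Its RefSeq window carries the core of the antioxidant response element (ARE, TGACNNNGC), which CNC and small MAF pairs bind, on the opposite strand, beginning 13 bases before the start (chr5:139791386-139791535 of GRCm38.p6, plus strand, motif in capitals as read on the strand of the gene).
Mafk: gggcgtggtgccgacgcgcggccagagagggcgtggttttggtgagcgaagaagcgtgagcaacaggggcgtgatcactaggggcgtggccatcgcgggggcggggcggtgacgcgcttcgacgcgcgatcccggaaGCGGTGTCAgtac
This core was present in 12.4% of all windows. Vehicle samples of Mafk had 61.2 and 41.5 CPM, and SR-3420 samples 131 and 92.7 CPM. TC samples ranged from 71.1 to 108 CPM and TC+SR-3420 samples from 113 to 146 CPM. ETO samples ranged from 35.6 to 63.3 CPM and ETO+SR-3420 samples from 71.0 to 114 CPM. The groups with SR-3420 overlapped one another, and TC alone overlapped both SR-3420 and ETO+SR-3420. Mafk rose without inhibitor by 1.12 (SE 0.31, edgeR adjusted p 0.0469), a call that was lost whichever of the 4 vehicle and SR-3420 samples was omitted (edgeR adjusted p 0.0824 without vehicle replicate 2, 0.295 without vehicle replicate 3, 0.293 without SR-3420 replicate 1 and 0.0597 without SR-3420 replicate 3). With TC its log2FC of 0.63 (SE 0.25) did not pass (edgeR adjusted p 0.0660), but did without TC replicate 2 (edgeR adjusted p 0.0450), and DESeq2 (adjusted p 0.0390) and edgeR with library totals (0.0298), without the filter on low counts (0.0347) or with only these 2 groups (0.0212) called it. With ETO it rose by 0.96 (SE 0.26, edgeR adjusted p 0.0150), which was lost without ETO replicate 3 (edgeR adjusted p 0.0501) and without ETO+SR-3420 replicate 2 (edgeR adjusted p 0.0577).

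Batf3 (NM_030060, chromosome 1, 192922293 to 192932822, plus strand, 3 exons) encodes a BATF protein best known from dendritic cells. It had only 9 to 84 counts per sample. Vehicle samples were at 2.19 and 0.830 CPM, and SR-3420 samples at 3.24 and 2.98 CPM. TC samples ranged from 2.04 to 2.46 CPM and TC+SR-3420 samples from 2.87 to 5.25 CPM. ETO samples ranged from 1.16 to 1.84 CPM and ETO+SR-3420 samples from 2.24 to 3.80 CPM. Although no group overlapped its partner, edgeR's test was not passed in any of the 3 arms, and DESeq2 called the gene with ETO (adjusted p 0.0383). Its log2FC was 1.01 (95% interval 0.10 to 1.92) without inhibitor, 0.78 (0.06 to 1.501) with TC and 0.95 (0.22 to 1.68) with ETO, with edgeR adjusted p-values of 0.177, 0.0831 and 0.0559. The call was made with TC when TC+SR-3420 replicate 2 was left out (edgeR adjusted p 0.0452) and with ETO when ETO+SR-3420 replicate 3 was left out (edgeR adjusted p 0.0329).

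Promoter windows, from 250 bases before to 50 bases after a start, were found in RefSeq for 9 of the 10 genes, with 11 windows in all. Both strands were searched for 5 motifs that are classical in the control of immediate early genes. These were the CRE, the AP-1 site itself (TRE, TGACTCA), the ARE core, the CArG box bound by serum response factor, and the TATA box (TATAAA), and a TRE followed by GC also matches the ARE core. Of the 9 genes, 4 had a match. Besides those printed above, the first window of Maff held an ARE core 112 bases before its start. No TRE or CArG box lay in the windows of these genes, while 5.2% and 1.63% of all windows held them, and a TATA box was present in 13.6%. A match describes letters in the window and not a bound site, and the absence of one says only that these letters are not there.

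Divided by counted length, transcript levels differed widely among the 10 genes. In vehicle, Jund was first with 94.9 ± 17.3 CPM per kb (SD, n = 2), followed by Fosl1 (70.2 ± 20.3), whose length is uncertain, and Jun (68.1 ± 11.7). Fosl2, Maff, Junb and Mafk lay between 35.3 and 18.2 CPM per kb. Fos had 3.62 ± 1.25, Batf3 2.12 ± 1.35 and Fosb 0.627 ± 0.0109 CPM per kb (SD, n = 2 each). With SR-3420 the levels of Fosl1 (329 ± 16.5 CPM per kb, SD, n = 2) and Jun (219 ± 74.2 CPM per kb, SD, n = 2) stood above that of Jund (151 ± 20.9 CPM per kb, SD, n = 2), though the intervals of Jun and Jund, as mean ± SD, overlapped. Fos reached 28.3 ± 7.56 CPM per kb (SD, n = 2) and remained below Fosl2 and Mafk, so the gene with the largest fold change without inhibitor was eighth in level, as it was in vehicle.

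**Figure D2:**
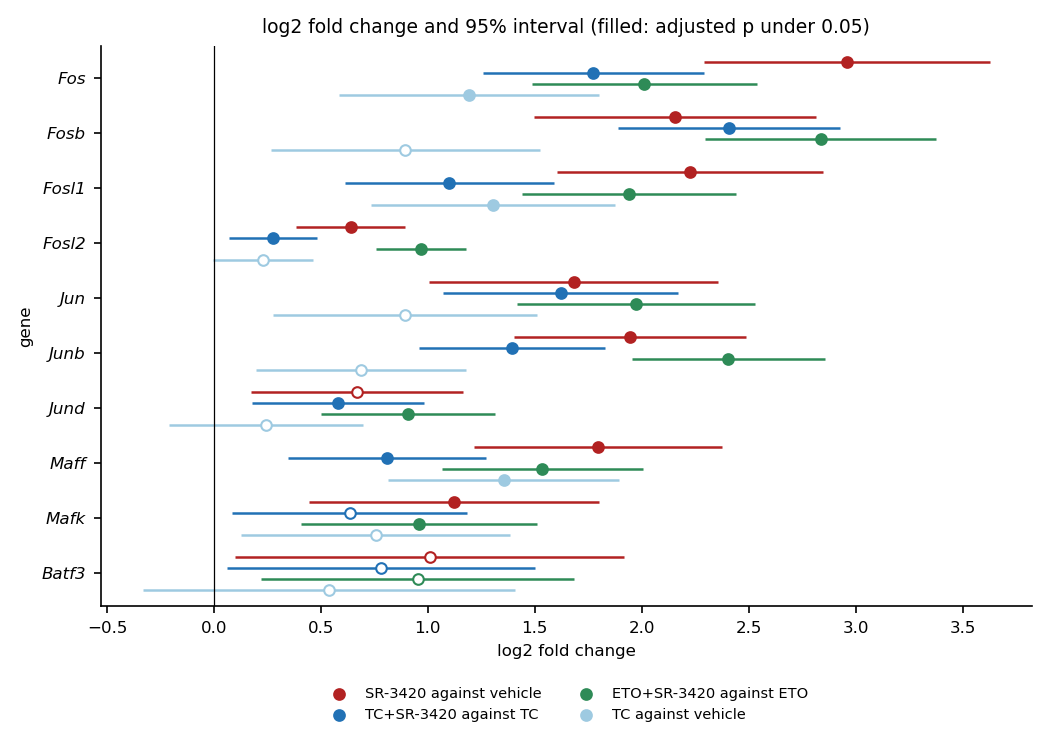
The log2 fold change of each AP-1 gene (point) with its 95% interval (line) for SR-3420 against vehicle, TC+SR-3420 against TC, ETO+SR-3420 against ETO and TC against vehicle, filled where edgeR's adjusted p was below 0.05. Fos (2.96) has the highest value without inhibitor and Fosb (2.41 and 2.84) the highest in the arms with TC and ETO.

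Compared with vehicle, TC raised 3 of the 10 genes and lowered none, where 4.77% of all tested genes rose and 6.94% fell. These were Maff (log2FC 1.35, SE 0.25, edgeR adjusted p 0.00281), Fosl1 (1.30, SE 0.26, edgeR adjusted p 0.00524) and Fos (1.19, SE 0.28, edgeR adjusted p 0.0134). For 8 of the 10 genes, Jund and Batf3 being the exceptions, every TC sample exceeded both vehicle samples, as in 24.4% of all tested genes. The remaining 7 had log2FC between 0.23 for Fosl2 and 0.90 for Fosb without passing the test. By DESeq2 6 were called, Fosb, Jun and Junb besides Fos, Fosl1 and Maff, where of all genes it called 828 raised and 1151 lowered. Without vehicle replicate 3, none of the 10 was called by edgeR, and the adjusted p was 0.176 for Fos, 0.0926 for Fosl1 and 0.0583 for Maff. ETO alone changed none of the 10 by edgeR, where 0.0235% of all genes were called in either direction. At an unadjusted p below 0.05 there was 1, Fosl2 (log2FC -0.40, SE 0.11), which DESeq2 also called as its only one. Among all genes, 283 were below that unadjusted p, and DESeq2 called 7 raised and 10 lowered. All 3 ETO samples of Fosl2 lay below both vehicle samples, as in 5.19% of all tested genes.

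Levels under combined treatment were compared with SR-3420 alone. TC+SR-3420 exceeded SR-3420 for 1 of the 10 genes by edgeR, Fosb, with a log2FC of 1.15 (SE 0.26, edgeR adjusted p 0.0228), where 1.02% of all genes were higher and 3.55% lower. The call on Fosb was lost without either SR-3420 sample (edgeR adjusted p 0.230 without replicate 1 and 0.0859 without replicate 3), without TC+SR-3420 replicate 2 (0.0663) and without TC+SR-3420 replicate 3 (0.0887), and a model of these 2 groups alone called none, where of all genes it called 9 raised and 73 lowered. Jun followed with 0.83 (SE 0.29, 95% interval 0.22 to 1.45, edgeR adjusted p 0.123), and was called by DESeq2. The values of the other 8 genes lay between -0.13 and 0.37. Between ETO+SR-3420 and SR-3420, edgeR called none of the 10 genes and 0.00782% of all genes. At an unadjusted p below 0.05 there was 1 of the 10 (Fosb, log2FC 0.68, SE 0.25), and 1279 of all 12786 genes. DESeq2 called none of the 10, where of all genes it called 8 raised and 81 lowered. These comparisons and the response to SR-3420 without inhibitor share the same 2 SR-3420 samples.

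Whether the response to SR-3420 itself changed with the inhibitor was tested as a difference of log2 fold changes. With TC minus without inhibitor, edgeR called none of the 10 genes, against 2.51% of all genes, with 4 at an unadjusted p below 0.05 and none by DESeq2. Those 4 were Fos (-1.18, 95% interval -1.99 to -0.37), Fosl1 (-1.13, -1.90 to -0.36), Maff (-0.99, -1.71 to -0.26) and Fosl2 (-0.36, -0.69 to -0.04), each a smaller increase with TC, and their edgeR adjusted p-values were 0.121, 0.121, 0.150 and 0.241. Over all genes, 2130 had an unadjusted p below 0.05 for this difference, and DESeq2 called 436 raised and 376 lowered. For Fos, Fosl1 and Maff the higher level in TC alone enters this difference, since TC+SR-3420 and SR-3420 differed by a log2FC of 0.01 (SE 0.26), 0.18 (SE 0.25) and 0.37 (SE 0.24). With ETO minus without inhibitor, edgeR called none of the 10 and 0% of all genes, with 2 of the 10 at an unadjusted p below 0.05 (Fos, -0.95, and Fosl2, 0.33) and none by DESeq2. Of all genes 307 were below that unadjusted p, and DESeq2 called 7.

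The direct comparison of the responses with TC and with ETO gave 1 call among the 10 genes, where 2.29% of all genes were called. Fosl2 rose less with TC than with ETO, by a difference of -0.69 (SE 0.14, 95% interval -0.99 to -0.40, edgeR adjusted p 0.0174). The call on Fosl2 was lost without TC replicate 1 (-0.65, edgeR adjusted p 0.0513) and without TC+SR-3420 replicate 2 (-0.61, edgeR adjusted p 0.0548), and also when genes with low counts were not filtered out (edgeR adjusted p 0.0722). Junb had a larger difference of -1.01 with a larger error (SE 0.28, 95% interval -1.62 to -0.40), which edgeR did not call (adjusted p 0.0950) and DESeq2 did. Fosl1 (-0.84, SE 0.32) and Maff (-0.72, SE 0.30) were below an unadjusted p of 0.05, with edgeR adjusted p-values of 0.255 and 0.323. That unadjusted p was passed by 1596 of all genes. The median difference of the 10 genes was -0.39. Over all tested genes the median was -0.06 with TMM and 0.02 with library totals.

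**Figure D3:**
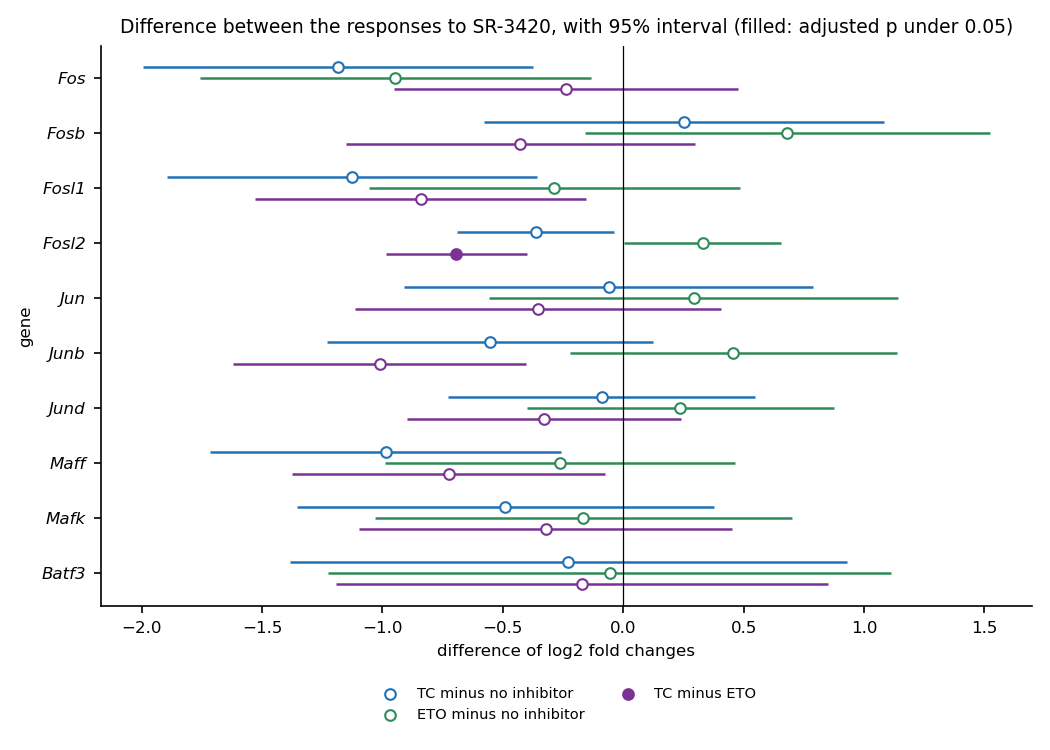
Difference between 2 responses to SR-3420 for each AP-1 gene, in log2 units (point), with its 95% interval (line), filled where edgeR's adjusted p was below 0.05. Only Fosl2 in the comparison of TC with ETO (-0.69) is filled, and its interval is the narrowest of the genes shown there.

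In most samples, the AP-1 genes leaned to 1 side of their group means. In vehicle replicate 3, 9 of the 10 genes lay below the group mean, with Fosb the exception, against 54.9% of all tested genes. The same number held in TC+SR-3420 replicate 3 (50.8% of all genes) and in ETO replicate 3 (54.5%), again with Fosb above its mean, and in TC replicate 1 (49.9%), with Fosl2 above. In the replicate 3 samples of SR-3420, TC and ETO+SR-3420, 7, 8 and 8 lay below, against 49.4%, 50.3% and 50.1% of all genes. In TC replicate 2, 8 of the 10 lay above the mean, with Fos and Fosl2 below. There were 9 above in vehicle replicate 2, TC+SR-3420 replicate 1, ETO replicates 1 and 2 and ETO+SR-3420 replicate 1. Of all genes, 45.1%, 49.8%, 45.7%, 46.2% and 47.8% lay below in these samples. SR-3420 replicate 1 had 7 above. Deviations are from the mean of the same group, so the samples in a group of 2 mirror each other by construction. TC+SR-3420 replicate 2 and ETO+SR-3420 replicate 2 had no common direction, with 4 below and 6 above in each. Over all 16 samples, the log2 levels of the 45 pairs of AP-1 genes had correlations between 0.77 and 0.98, with a median of 0.90. The 16 points fall into 6 groups that differ in SR-3420 and inhibitor, so these values describe the pattern over the treatments only.

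Among all tested genes, those with the profile most like an AP-1 gene over the 16 samples were found by Pearson's r. For Fos they were Dusp10 (0.98), a phosphatase of JNK and p38, the lipid droplet coat gene Plin2 (0.98) and Cdca4 (0.97). For Fosb they were Adm, Kctd11 and Wisp1, each at 0.99. Fosl1 and Maff were close to each other (0.98), and Rassf1 was among the closest 3 of both and of Jun. Besides Rassf1, Jun had Dusp1 (0.99), the phosphatase that acts on MAP kinases, and Trim27 (0.98). The pattern of Junb was nearest to those of Jmjd6, Slc16a3 and P4ha2 (each 0.99), and that of Fosl2 to Slc16a3 (0.96), Bhlhe40 (0.95) and Ddit4 (0.94), so the lactate exporter gene Slc16a3 was on both lists. Jund was nearest to the immediate early gene Ier2 (0.97), Alyref (0.97) and Erf (0.97), and Mafk to Eif3c, Hspa8 and Mybbp1a (each 0.99). Maff further had Sf1 (0.98) and Fosl1 had Tnfrsf12a (0.98). Batf3, which had low counts, was nearest to Dtx3 (0.94), Smox (0.93) and Shmt2 (0.93).

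Other bZIP genes can pair with AP-1 subunits. Of 15 tested, 4 rose with SR-3420 and none fell (4.75% and 2.79% of all genes), with a median log2FC of 0.34. Atf3, which encodes a stress-induced partner of JUN proteins, had 14.5 and 13.6 CPM in vehicle and 163 and 190 CPM with SR-3420. It was already at 77.1, 96.3 and 85.3 CPM with TC alone. Its log2FC was 3.64 (SE 0.18) without inhibitor, 2.20 (SE 0.14) with TC and 3.34 (SE 0.15) with ETO, and 2.61 (SE 0.17) for TC against vehicle. Atf3 was thus like Fos, Fosl1 and Maff in that TC alone raised it. The increase was smaller with TC than without inhibitor by a tested difference of -1.45 (SE 0.22, edgeR adjusted p 0.00494). Ddit3, encoding CHOP, rose by 2.19, 1.98 and 1.88 in the 3 arms, and Jdp2, encoding a repressor that dimerizes with JUN, by 1.07, 1.40 and 1.25. The call on Jdp2 without inhibitor was lost without vehicle replicate 3 (edgeR adjusted p 0.0571). Atf4 completed the 4 without inhibitor with 0.65, a call lost in 3 of 4 fits with a sample omitted (edgeR adjusted p up to 0.112), and 2 of the 15 rose without vehicle replicate 3. With TC, where 17.3% of all genes rose and 19.7% fell, 7 rose and 2 fell (Nfe2l3, -2.10, and Maf, -0.76, the latter lost in 3 of 6 such fits), Bach2 among those raised (1.00), and with ETO 6 rose (12.5% of all genes), among them Nfe2l2 (0.81, lost in 4 of 6). TC alone, which raised 4.77% and lowered 6.94% of all genes, raised 4, among them Mafg (0.96, lost in 2 of 5), Atf4 (0.67) and Bach1 (0.41, lost in all 5), and lowered Bach2 (-1.29), and without vehicle replicate 3 it raised 2. Mafg, a small MAF gene like Maff and Mafk, was not called by edgeR in any of the 3 arms with SR-3420. With TC its log2FC was -0.24 (SE 0.20). Batf, Batf2, Nfe2 and Nrl were too low to be tested.

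Of 17 tested kinase genes of the ERK, JNK and p38 cascades, edgeR called none for SR-3420 against vehicle (4.75% of all genes rose and 2.79% fell). At an unadjusted p below 0.05 there were 4 of the 17, and 2788 of all 12786 genes. DESeq2 called none of the 17, where of all genes it called 896 raised and 688 lowered. The median log2FC of the 17 was 0.06. With TC, where 17.3% of all genes rose and 19.7% fell, Map3k5 (0.71) and Map2k1 (0.66) rose and Map3k1 (-0.38) fell. The last was a call lost in all 6 fits that left out a sample. With ETO, where 12.5% of all genes rose and 12.8% fell, Map2k1 rose (0.47) and Map3k5, encoding the stress kinase ASK1, fell (-0.80). TC alone, which raised 4.77% and lowered 6.94% of all genes, lowered Map3k5 by 2.25 and Map3k1 by 0.86 on the log2 scale. RNA levels of kinases do not show their activity. Among 10 tested genes for factors that bind the promoters of immediate early genes, Elk3, a partner of serum response factor, rose in every arm (0.63, 0.61 and 0.72), and the first of these calls was lost in 3 of 4 fits with a sample left out. With TC, Mef2a (1.09, lost in 2 of 6), Mkl1 (0.79, lost in 4 of 6) and Mkl2 (0.69) rose too, and Mkl2 was lower with TC alone (-0.71). Serum response factor itself (Srf) had a log2FC of 0.82 (95% interval 0.07 to 1.57) without inhibitor and was not called.

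**Figure D4:**
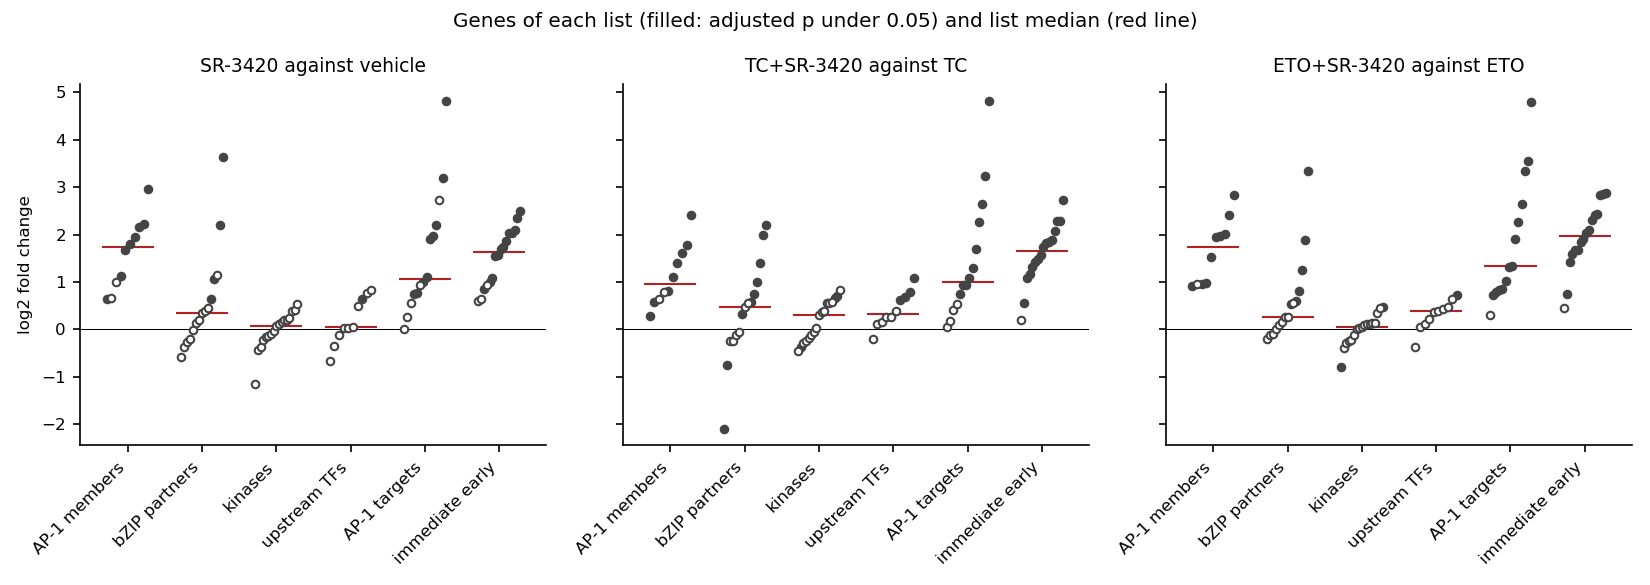
Log2 fold changes of the AP-1 genes and of the genes of 5 further lists in the 3 arms (points, filled where edgeR's adjusted p was below 0.05), with the median of each list (red line). Medians without inhibitor are 1.74 for the AP-1 genes, 1.62 for other immediate early genes, 1.06 for textbook AP-1 targets, and 0.34, 0.06 and 0.04 for bZIP partners, kinases and upstream factors.

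Genes that textbooks describe as targets of AP-1 largely went up with it. Of 14 tested, 9 rose with SR-3420 alone (4.75% of all genes), 10 with TC (17.3%) and 13 with ETO (12.5%), and none fell. Leaving out single samples gave 6 to 7, 10 and 11 to 13. Areg, encoding the growth factor amphiregulin, had 2 and 3 counts in the vehicle samples and 71 and 123 with SR-3420, for a log2FC of 4.81 (SE 0.69) that rests on few reads. In the other arms it rose by 4.82 (SE 0.49) and 4.80 (SE 0.52). Lif, a cytokine of the interleukin 6 family, rose by 3.20, 3.25 and 3.54, and the growth factor gene Hbegf by 2.20, 2.26 and 2.65. Il6 rose with TC (2.65) and with ETO (3.34), and without inhibitor had a log2FC of 2.73 (SE 0.95, edgeR adjusted p 0.103) at 2 to 54 counts. The metallothionein gene Mt2 was set apart by its behaviour with TC alone, where it was at 473, 600 and 549 CPM against 54.5 and 48.9 CPM in vehicle (log2FC 3.39, SE 0.18, edgeR adjusted p 2.43e-07). TC alone raised 4 of the 14 (4.77% of all genes), among them Plaur (0.81, lost in 4 of 5 fits with a sample omitted) and Hbegf (0.57, lost in 4 of 5), and 2 of the 14 without vehicle replicate 3. The matrix metalloproteinase genes Mmp3, Mmp9, Mmp10 and Mmp13 were too low to be tested.

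Other immediate early genes moved in the same direction. Of 16 tested, 13 rose with SR-3420 without inhibitor (4.75% of all genes), 15 with TC (17.3%) and 15 with ETO (12.5%), and none fell, with medians of 1.62, 1.66 and 1.97. Without vehicle replicate 3, 9 rose in the first comparison. Egr1 had 92.4 and 89.0 CPM in vehicle and 508 and 523 CPM with SR-3420 (log2FC 2.51, SE 0.18). It was followed by Egr2 (2.34), Dusp1 (2.09) and the nuclear receptor gene Nr4a1 (2.04). With TC the largest were Egr1 (2.74), Egr2 (2.28), Dusp1 (2.28) and Egr3 (2.08), and with ETO they were Egr1 (2.88), Egr3 (2.85), Egr2 (2.83) and Dusp1 (2.43). TC alone raised 4 of the 16 (4.77% of all genes), namely Ier3 (1.37), Klf4 (1.04), Myc (0.84) and Ier5 (0.75), and only 1 without vehicle replicate 3. Egr1 was not among them, with a log2FC of 0.16 (95% interval -0.18 to 0.50).

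Markers of the cells moved with treatment too. Of 10 brown adipocyte markers 9 could be tested, and their summed level was 14505 and 13165 CPM in vehicle, 10799 and 9744 CPM with SR-3420, and 14521, 15664 and 15040 CPM with TC. It was 5861, 5835 and 6179 CPM with TC+SR-3420, 13906, 12947 and 14109 CPM with ETO, and 7821, 5529 and 9504 CPM with ETO+SR-3420. The sum was lower in every sample with SR-3420 than in its partner group, and Fabp4, a fatty acid binding protein, was the most abundant marker in all samples. Of all tested genes, 2.79% fell for SR-3420 against vehicle, 19.7% with TC, 12.8% with ETO and 6.94% for TC alone. With TC, 17.3% of all genes rose. With SR-3420 against vehicle, Pparg fell (-0.82), a call lost in all 4 fits with a sample left out. With TC, Adipoq (-1.68), Plin1 (-1.48), Fabp4 (-1.33) and Cebpa (-1.01, lost in 3 of 6) fell and Prdm16 rose (0.74, lost in 4 of 6). With ETO, Adipoq (-1.24), Plin1 (-0.90, lost in 4 of 6), Fabp4 (-0.85, lost in 3 of 6) and Pparg (-0.79) fell. TC alone lowered Prdm16 (-2.14), Pparg (-1.48) and Ppargc1a (-1.04, lost in 4 of 5). General adipocyte genes were abundant, whereas the thermogenic gene Ucp1 averaged 2.16 CPM, Cidea averaged 18.7 CPM and Dio2 had at most 2 counts in a sample. The part of these shifts in the AP-1 results was not tested.

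Of 13 markers of other cell types in the table, 6 could be tested. Their summed level was 641 and 512 CPM in vehicle and 1215 and 1002 CPM with SR-3420. It ranged from 753 to 861 CPM with TC, from 1034 to 1378 CPM with TC+SR-3420, from 430 to 821 CPM with ETO and from 767 to 1276 CPM with ETO+SR-3420. Most of this was Acta2, the smooth muscle actin gene that fibroblast-like cells also express, at 358 to 1190 CPM. Acta2 rose with ETO (0.77, lost in 4 of 6 fits with a sample omitted), and its log2FC was 1.00 (SE 0.29, edgeR adjusted p 0.0536) without inhibitor and 0.58 (SE 0.24, edgeR adjusted p 0.0698) with TC. No marker of this list was called by edgeR for SR-3420 against vehicle, with 3 at an unadjusted p below 0.05 and 1 by DESeq2. Among all 12786 genes, 2788 were below that unadjusted p, and DESeq2 called 896 raised and 688 lowered. With TC, Kdr (0.96) and Pdgfra (0.47) rose, each lost in 4 of 6, and Cd68 (-1.29) fell, and with ETO, Kdr (1.28) and Pdgfra (0.56, lost in 4 of 6) rose and Myh11 (-0.63, lost in 5 of 6) fell. TC alone, which raised 4.77% of all genes, raised Cd68 (1.92). The preadipocyte gene Dlk1 averaged 48.6 CPM and was not called by edgeR in these comparisons. With ETO, DESeq2 called 4 of the 6 raised and 1 lowered, where edgeR called 3 raised and 1 lowered. Over all genes with ETO, DESeq2 called 1861 raised and 1955 lowered of 13339, and edgeR 12.5% raised and 12.8% lowered. The shares by edgeR with TC were 17.3% raised and 19.7% lowered. The leukocyte, endothelial, epithelial and muscle markers that could not be tested were Ptprc, Emr1, Pecam1, Cdh5, Epcam, Krt8 and Myog. Each of these was at 0 in at least 1 sample and below 0.4 CPM on average. Myog had 44 counts (3.34 CPM) in TC replicate 3 and at most 7 in any other sample. Tested markers of such cells had counts in every sample. Cd68 ranged from 3.23 to 16.5 CPM, Kdr from 0.753 to 2.78 CPM and Myh11 from 2.58 to 5.79 CPM. The part of the Acta2 and Pdgfra shifts in the AP-1 results was not tested.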

How the data were processed

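RNA was measured in 16 samples of a mouse brown adipocyte line. The authors aligned reads with STAR 2.4.2a to mm9, kept 1 read per position and length with HOMER and deposited whole-number counts per gene from iRNA-seq with no normalization, and the deposited table also gives positions and a counted length in bases as other values. Here, 1 was added to starts. The counts were analysed in R 4.3.3 with edgeR 4.0.16, which gave log2 fold changes, 95% intervals, p-values and, by way of the test statistic, standard errors (quasi-likelihood test, TMM, filterByExpr, 1 model of 6 group means without covariate, Benjamini-Hochberg adjustment over 12786 genes). CPM used TMM-scaled totals. Replicates are, by the study's methods, independent experiments. Within groups, 14 pairs of replicates differed by 4.36 to 160 times sampling noise (chi-square per degree of freedom) and 0 were identical. Total counts per sample (9452861 to 25670624) limit low genes such as Batf3.

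Members and gene lists were chosen with earlier results of these data known. Genes named are the 10 members, at most 4 per list and direction with the largest fold change among those called at a mean of at least 1 CPM, all markers, and the 3 genes closest to each member by Pearson's r over 16 samples. Genes named outside this rule (Srf, untested or uncalled genes) were chosen after their values were seen. Alternatives were DESeq2 1.42.0 (Wald test) and its size factors, library totals, no filter beyond 1 count, at least 10 counts in every sample, only the compared groups, a threshold of 1 on the size of the log2FC, the replicate number as a block, and leaving out each sample. Exon numbers come from an annotation of mm9 and promoter windows from RefSeq on GRCm38.p6, whose positions are not comparable with those of mm9. Steps were tested on simulated counts. Plots and promoter searches used Python 3.11.15 and matplotlib 3.10.9.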

Additional observations from a re-analysis of the deposited data

Results flagged for a closer look

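The response of Fosl2 to SR-3420 differed between the inhibitors by a test of the difference itself, -0.69 on the log2 scale for TC minus ETO (SE 0.14, edgeR's quasi-likelihood test, Benjamini-Hochberg adjusted p 0.0174). The log2FC behind it was 0.28 with TC and 0.97 with ETO, and every SR-3420 sample lay above its partner group in both arms. Over the fits that left out 1 of the 12 samples, the difference stayed between -0.73 and -0.61, with the edgeR adjusted p at 0.0513 without TC replicate 1 and 0.0548 without TC+SR-3420 replicate 2.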

How the results depend on the processing

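Alternatives were examined for the log2FC of all 10 AP-1 genes in the 3 SR-3420 arms and in TC against vehicle. In the other comparisons only genes picked from those at an unadjusted p below 0.05 by edgeR were examined, and none for ETO minus no inhibitor. None of the examined values changed sign. Genes with values near 0 in those other comparisons were left out, so their signs were not checked. Of these examined values under all alternatives, 595 kept their side of the threshold, 34 lost the call and 32 gained it. Of counts for other lists, under the block and DESeq2 only, 90 kept within 1.5 times and 22 were higher. With vehicle replicate 3 left out such counts fell, from 4 to 2 for bZIP genes raised by SR-3420 against vehicle, and for TC against vehicle from 4 to 1 for immediate early genes and from 4 to 2 for AP-1 targets and for bZIP genes. With SR-3420 against vehicle, 3 AP-1 genes were called in a model of only the compared groups, which has fewer samples to estimate the spread, and 5 to 7 with a sample left out. With TC+SR-3420 against TC, requiring a log2FC of at least 1 left 5, and leaving out a sample gave 6 to 9. With ETO+SR-3420 against ETO, 8 to 10 were called with a sample left out. TC against vehicle gave 6 by DESeq2 and 0 to 3 with a sample left out, and ETO against vehicle 1 by DESeq2. TC+SR-3420 against SR-3420 gave 2 by library totals, 2 by DESeq2, 0 with only the compared groups and 0 to 1 with a sample left out. TC minus ETO gave 2 by DESeq2, 0 without the filter on low counts, 0 at a difference of at least 1 in size and 0 to 1 with a sample left out. The cause of these changes was not tested. Where a left-out sample leaves 1 in a group, that sample is assumed to vary like the other groups. Library totals moved the median log2FC of all genes for SR-3420 against vehicle from -0.004 to -0.12, and for the difference TC minus no inhibitor from -0.04 to 0.09.

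With the replicate number as a block, 9 AP-1 genes were called for SR-3420 against vehicle, 10 with TC and 10 with ETO, 7 for TC against vehicle, 2 for TC+SR-3420 against SR-3420, 1 for ETO+SR-3420 against SR-3420, 2 for TC minus no inhibitor (Fosl1 and Maff) and 4 for TC minus ETO (Fosl1, Fosl2, Junb and Maff). Over all genes the block moved the calls for SR-3420 against vehicle from 607 raised and 357 lowered to 1423 and 1015, and in the order above the others became 3515 and 3670, 2897 and 2879, 1530 and 1542, 1277 and 1731, 761 and 1077, 737 and 932, and 634 and 421. The 35 pairs of samples with the same number had a mean correlation of deviations of 0.41 (-0.29 to 0.83), 8 of them were not over 0.1, all with TC replicate 1 or ETO+SR-3420 replicate 2, and 71 other pairs had a mean of -0.20. Of the 16 samples, 11 correlated best with their own number, a hint from the data and not the design, so the numbers were not taken as pairing. At least 10 counts in every sample left 9 AP-1 genes to test, without Batf3. Depth limits Batf3, Areg and Il6 most, whose counts fall to 9, 1 and 2 in a sample.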
